A study of Mus musculus with 10 samples.

Results

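Rab26 and the genes around it on mouse chromosome 17 were followed through 10 neural stem cell libraries. The set was taken from the deposited count table as the rows of chromosome 17 (GRCm38) that start in the 1.5 Mb from 24000000 onwards. Ribosomal protein genes were left out by name, and at least 10 counts were required in at least 2 libraries. Of 52632 genes in the table, 88 start in this window. Of these, 55 met the rule, 32 had too few counts and 1, Rps2, was left out by its name alone. The 32 include Rpl3l, which the rule on names would also leave out. The 55 are Rab26 and 54 neighbours, and 51 of them are annotated as protein-coding. Rab26 itself was selected on its total counts, which differed between the genotypes in these same libraries, so its genotype values are given as a description without a test. The neighbours were chosen by position and by the count minimum over all libraries. For 2 of them, Abca17 and Snora78, the minimum was met through E147A/+ libraries: 3 of these and 0 or 1 +/+ library had at least 10 counts. Summaries are therefore given also for the other 52 neighbours, which meet the minimum in +/+ alone, a setting chosen after the values were seen.

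Poly(A) RNA was sequenced from adherent neural stem cell cultures, each grown from the cortices of 1 mouse embryo at embryonic day 14.5. The mutation is E147A in SMCHD1, an ATPase that binds chromatin and has a part in silencing the inactive X chromosome and several autosomal gene clusters. The groups were female Smchd1GFP-E147A/+ with XistdeltaA/+ (n = 2), female Smchd1+/+ with XistdeltaA/+ (n = 2), male Smchd1GFP-E147A/+ (n = 3) and male Smchd1+/+ (n = 3). They are written E147A/+ and +/+ from here on. The GFP tag sits on the mutant allele alone, so tag and mutation cannot be told apart, and both female groups carry the Xist deletion. In replicate order, the litters were 1 and 2 for female E147A/+, 3 and 3 for female +/+, 1, 1 and 3 for male E147A/+, and 4, 1 and 3 for male +/+. Genotype and litter cannot be told apart in females.

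The 4 female libraries have counts assigned to the 129 and to the Cast allele. The labels describe every embryo as having a Castaneus father and a mother that was an F1 of 129 and C57, which would leave 1 Cast copy of each autosome. On chromosome 17 the female E147A/+ libraries went against that description. Outside the window, over 517 genes with at least 10 allelic counts in each female library, the median Cast share was 0.917% and 0.250% in E147A/+. It was 48.6% and 49.5% in +/+. Strain at chromosome 17 and genotype at Smchd1, a gene of the same chromosome, therefore cannot be told apart in females. The C57 copy has no column of its own, and how reads from it were assigned is not given in the sources used here. Allelic values are given for females alone.

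RAB26 is a small GTPase that cycles between GTP-bound and GDP-bound forms and acts on secretory granules and vesicles. It is known from exocrine secretory cells, where the transcription factor encoded by Bhlha15 promotes its expression. In neurons it has been linked to the delivery of synaptic vesicles to autophagosomes through ATG16L1, with PLEKHG5 as its exchange factor. Its neighbours have varied roles: Pkd1 encodes polycystin-1, a large membrane protein of primary cilia, and Tsc2 encodes tuberin, an inhibitor of mTORC1. Traf7 encodes a RING-type ubiquitin ligase and Caskin1 a synaptic scaffold protein that binds CASK.

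Rab26 (ENSMUSG00000079657) lies at 24527241 to 24534210 on the minus strand and has 2852 annotated exonic bases. Rab26os, an antisense RNA gene, lies within its span on the plus strand at 24528248 to 24528744, and shares no exonic base with it in GENCODE. It does share 78 bases on the same strand with the small nucleolar RNA gene Snord60. Traf7 (24508562 to 24527938, minus strand) ends within the Rab26 span, and the 2 genes share 267 exonic bases on the same strand. Pkd1 (24549834 to 24596508) is the next tested gene downstream in coordinates, and Caskin1 (24488601 to 24508671) the next beyond Traf7. Of the 55 members, 41 matched an entry of the RefSeq promoter table (GRCm38.p6). Rab26 did not. The 250 bases upstream of the RefSeq starts of its nearest matched neighbours on the higher-coordinate side are shown. Rab26os lies within the Rab26 span and Pkd1 is the next tested gene, and both differ from Rab26 in the libraries below. Capitals mark the dinucleotide CG, the site of DNA methylation in mammals. Rab26os is read from chr17:24528001-24528250 and Pkd1 from chr17:24549700-24549949, both on the plus strand. The RefSeq starts, 24528251 and 24549950, lie downstream of the starts that the deposited table gives.
Rab26os: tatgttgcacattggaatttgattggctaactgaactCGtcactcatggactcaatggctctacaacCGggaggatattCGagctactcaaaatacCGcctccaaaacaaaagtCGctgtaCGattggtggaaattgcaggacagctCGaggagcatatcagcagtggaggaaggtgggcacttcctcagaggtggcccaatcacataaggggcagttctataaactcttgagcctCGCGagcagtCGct
Pkd1: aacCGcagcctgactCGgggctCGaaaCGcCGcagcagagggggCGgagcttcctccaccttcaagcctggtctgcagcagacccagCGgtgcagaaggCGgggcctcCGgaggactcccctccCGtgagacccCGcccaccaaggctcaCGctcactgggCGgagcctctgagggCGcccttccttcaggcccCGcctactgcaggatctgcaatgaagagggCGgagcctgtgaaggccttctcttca
The Rab26os stretch holds 10 CG, and 37.8% of 32851 promoter stretches of the same length in the table hold as many or more. The Pkd1 stretch holds 16, and 25.4% hold as many or more. Over the promoter entries of the members the median was 15 CG, beside 6 over the whole table. These counts describe sequence, and methylation was not measured.

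Rab26 was high in each E147A/+ library and low in each +/+ library. Its level was 94.4 and 85.1 CPM (counts scaled to library size with TMM factors) in the female E147A/+ libraries and 3.31 and 3.6 in the female +/+ libraries. In males it was 99.0, 124 and 126 CPM in E147A/+ and 6.93, 6.76 and 1.92 in +/+. The groups did not overlap: the lowest E147A/+ library stood 12.3-fold above the highest +/+ library. These levels rest on 3680 to 4086 counts per E147A/+ library and 57 to 201 per +/+ library, of 20648916 to 44519020 counts in all. In bulk RNA, more cells with the transcript and more transcript per cell cannot be told apart.

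The Rab26 log2 fold change was 4.59 (SE 0.34) over both sexes, 4.70 (SE 0.52) in females and 4.49 (SE 0.42) in males. The pooled SD of log2 CPM within groups was 0.54. In female E147A/+ the mean was 89.7 ± 6.59 CPM (SD, n = 2) and in female +/+ 3.45 ± 0.201 (n = 2). In male E147A/+ it was 116 ± 15.1 (n = 3) and in male +/+ 5.21 ± 2.84 (n = 3). Between female +/+ and male +/+, a contrast that had no part in choosing the gene, the log2 difference was -0.58 (SE 0.44, adjusted p = 0.999 in edgeR's quasi-likelihood test). Among all tested genes 0.0292% passed in that contrast.

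The rank of Rab26 within its window differed between the genotypes. Per kilobase of exon it ranked 47 of 55 members in female +/+ and 44 in male +/+, at 1.21 and 1.83 CPM per kb. It ranked 4 in female E147A/+ and 2 in male E147A/+, at 31.5 and 40.8 CPM per kb. Its share of the window's counts was 0.0721% to 0.289% in +/+ and 2.72% to 4.62% in E147A/+.

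**Figure D1:**
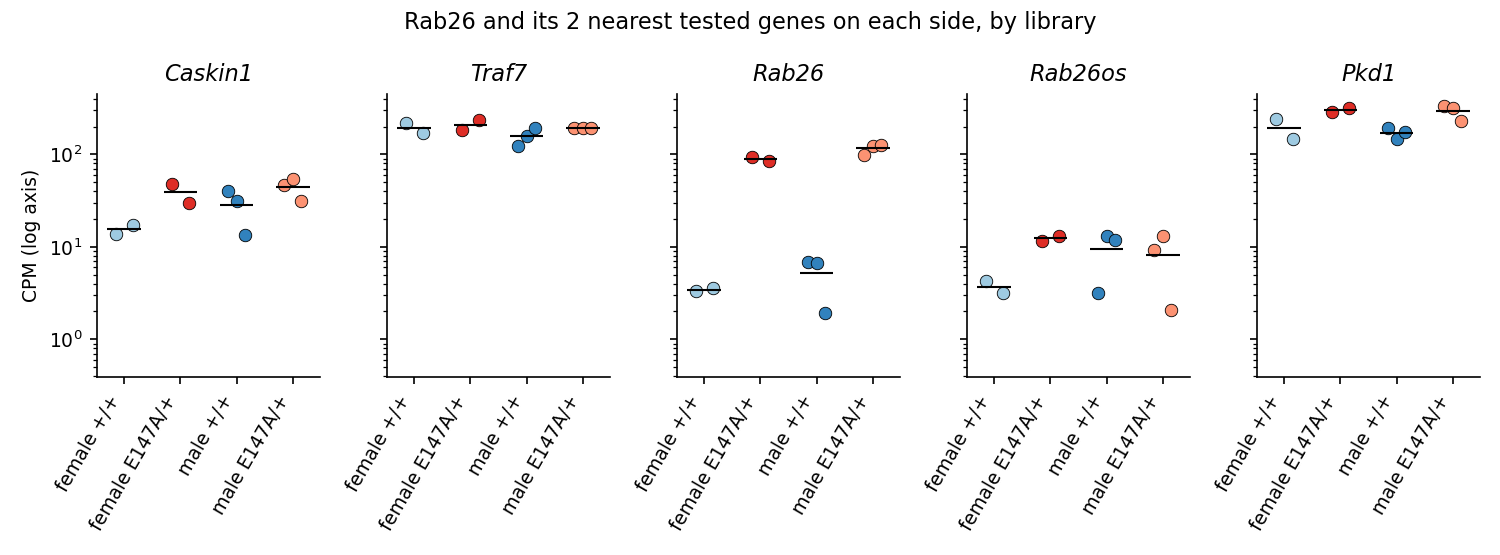
Level of Rab26 and of its nearest tested genes on each side (CPM, log axis) in each of 10 libraries, by sex and genotype; points are libraries and bars are group means. Rab26 is between 85.1 and 126 CPM in E147A/+ and between 1.92 and 6.93 in +/+, while the ranges of Caskin1, Traf7, Rab26os and Pkd1 overlap between the genotypes over both sexes.

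The immediate neighbours did not follow Rab26 in size. Traf7, which overlaps it, had 183 and 235 CPM in female E147A/+ and 218 and 172 in female +/+. In males Traf7 had 193.6, 193.9 and 193.8 CPM in E147A/+ and 123.2, 159.6 and 192.6 in +/+. The male E147A/+ libraries were thus just above the male +/+ libraries, and the female libraries interleaved. Traf7 had a log2 fold change of 0.20 (SE 0.15) over both sexes (adjusted p = 0.824 in edgeR). 

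Rab26os, the antisense RNA, stood at 11.5 and 13.2 CPM in female E147A/+ and 4.30 and 3.13 in female +/+. In males Rab26os stood at 9.32, 13.0 and 2.06 CPM in E147A/+ and 3.14, 13.0 and 11.98 in +/+. The female genotypes did not overlap and the male genotypes did. Rab26os had a log2 fold change of 0.76 (SE 0.51) over both sexes (adjusted p = 0.824 in edgeR), 1.73 in females and -0.21 in males. The male E147A/+ library with the lowest Rab26os level, replicate 3, had the highest Rab26 level of the 10 libraries. Whether the counting used strand is not given in the sources used here, so reads of Rab26os and of Rab26 introns at this place could be mixed.

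Over both sexes, and in males alone, Pkd1 had the lowest p of the neighbours. Its level was 288 and 318 CPM in female E147A/+ and 243 and 145 in female +/+. In males it was 330, 319 and 228 in E147A/+ and 191, 145 and 175 in +/+. The genotypes did not overlap within either sex, while over both sexes the lowest E147A/+ library, at 228 CPM, lay below the highest +/+ library, at 243 CPM. The Pkd1 log2 fold change was 0.71 (SE 0.18) over both sexes. In edgeR's quasi-likelihood test its unadjusted p was 0.0027 and its adjusted p 0.492.

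Caskin1 had 48.4 and 29.5 CPM in female E147A/+ and 13.9 and 17.4 in female +/+. In males Caskin1 had 47.1, 53.8 and 31.6 CPM in E147A/+ and 40.2, 31.4 and 13.3 in +/+. The female genotypes did not overlap and the male genotypes did, by 1 library on each side. Over both sexes Caskin1 differed by 0.98 on the log2 scale (SE 0.30), with adjusted p = 0.702 in edgeR.

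Over the 54 neighbours 0 passed the adjusted p threshold of 0.05 over both sexes in edgeR, where 0.0818% of 17110 tested genes passed. In females 0 passed (0.0117% of all genes), in males 0 (0.0234%), in the sex by genotype interaction 0 (0% of all genes), and between the +/+ sexes 0 (0.0292%). At an unadjusted p under 0.05 the counts were 4, 4, 1, 1 and 0 of 54, in the same order. Over both sexes that is 7.41% of the neighbours, beside 5.90% of all genes. In females it is 7.41% beside 4.36%, and in males 1.85% beside 3.44%. In the interaction it is 1.85% beside 1.84%, and between the +/+ sexes 0% beside 1.65%. Without Abca17 and Snora78 the count over both sexes was 3 of 52 (5.77%), which are Pkd1, Caskin1 and Cramp1l. In females it was then 3 of 52 (5.77%, beside 4.36% of all genes), and in males 1 (1.92%, beside 3.44%). Over the 52 these shares were near those of all genes, and each rests on at most 3 genes. All 55 members passed the filter on low counts. DESeq2 and limma-voom also called 0 of the 54 over both sexes. Their shares of all genes are not given here, so no comparison is drawn from these counts.

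The median log2 fold change of the neighbours over both sexes was 0.11, beside -0.01 for all tested genes. The median absolute value was 0.21, beside 0.20. The log2 fold change was positive for 34 and negative for 20 of the 54 (63.0% positive, beside 48.0% of all genes). A log2 fold change of at least 1 in either direction was found in 1 neighbour, Abca17, and in 5.27% of all genes, and of at least 0.5 in 6 neighbours and 17.9% of all genes. Over the 52 the median was 0.09 and the median absolute value 0.19, with 32 positive (61.5%), 0 at 1 or more and 5 at 0.5 or more. Summed over the 54, female E147A/+ had 2963 ± 110 CPM (SD, n = 2) and female +/+ 2642 ± 282 (n = 2). Male E147A/+ had 2779 ± 158 (n = 3) and male +/+ 2518 ± 136 (n = 3).

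None of the 54 had all 5 E147A/+ libraries above, or all 5 below, all 5 +/+ libraries. Of all tested genes 0.695% lay above and 0.742% below, and of 779 genes of chromosome 17 alone 1.93% lay above and 3.08% below. Within females, 20 neighbours (37.0%) were higher in both E147A/+ libraries and 7 (13.0%) lower, beside 21.8% and 19.3% of all genes, and of the 52 the counts were 18 and 7. Within males, 4 (7.41%) were higher and 0 lower, beside 3.2% and 3.96%. Pkd1 was higher in both sexes, and the other 3 of the 4 were Abca3, Rnps1 and Traf7.

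**Figure D2:**
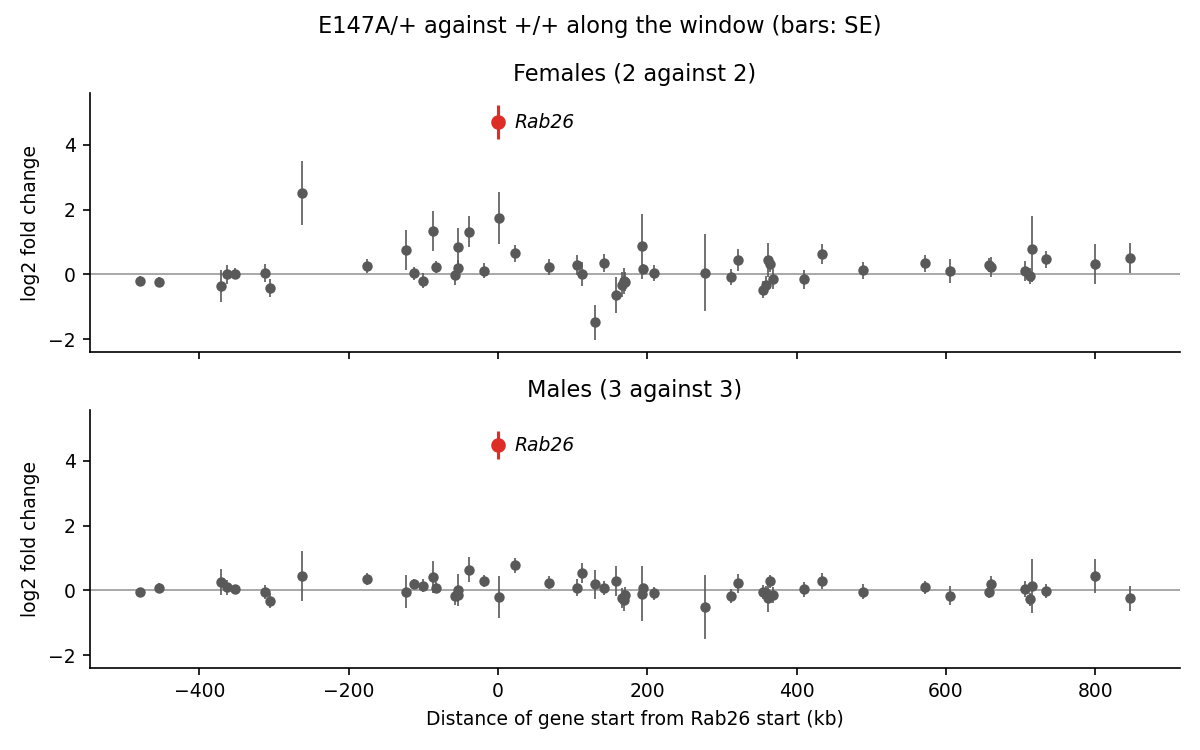
Log2 fold change of E147A/+ against +/+ (y axis) for each member by the distance of its start from that of Rab26 (x axis, kb), in females and in males; bars are standard errors. Rab26 stands at 4.70 and 4.49, and no neighbour exceeds 2.51 (Abca17, on at most 16 counts) in females or 0.78 (Pkd1) in males.

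The largest fold change among the neighbours came from a gene of few counts. Abca17, an ABC transporter gene just inside the count threshold, had 0.370 and 0.301 CPM in female E147A/+ and 0.0318 and 0.0771 in female +/+. It held at most 16 counts in an E147A/+ library and at most 7 in a +/+ library. Since it met the count minimum through E147A/+ alone, its log2 fold change of 1.48 is a description. Its tests enter the text only within counts over the 54 neighbours, those with 1 library left out included. It is 1 of the 4 at an unadjusted p under 0.05 in edgeR over both sexes, and 1 of the 4 in females. The counts over the 52 leave it out. Next came Caskin1 at 0.98, Dnase1l2, a deoxyribonuclease gene, at 0.88 (SE 0.40), Rab26os at 0.76 and Pkd1 at 0.71. At the other end stood Npw, the neuropeptide W gene, at -0.65 (SE 0.35), Ccnf, which encodes cyclin F, at -0.37 and Gfer, a mitochondrial sulfhydryl oxidase gene, at -0.28. Nubp2 and Noxo1 both stood at -0.26. With litter as a covariate the sign turned for Rab26os (-0.48), Gfer (0.16) and Noxo1 (0.0584). Noxo1 shares 2122 of its 3013 exonic bases with Tbl3 on the opposite strand, so without knowing the use of strand its counts are uncertain. None of the 9 genes besides Abca17 passed the test, with adjusted p from 0.492 for Pkd1 to 0.845 for Noxo1.

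Among the 5 tested members on each side of Rab26, the log2 fold changes on the lower-coordinate side were -0.10 for Pgp, 0.03 for Mlst8, 0.43 for Bricd5, 0.98 for Caskin1 and 0.20 for Traf7. On the other side they were 0.76 for Rab26os, 0.71 for Pkd1, 0.24 for Tsc2, 0.18 for Nthl1 and 0.27 for Slc9a3r2. Pgp was the only negative value among these 10, but with litter as a covariate Pgp was at 0.15, and Mlst8 (-0.17), Rab26os (-0.48) and Tsc2 (-0.0812) were below 0. All 997 exonic bases of Bricd5 are shared with Mlst8 on the opposite strand, and Pkd1 and Tsc2 share 693, so reads of these pairs could be mixed if strand was not used. The values near Rab26 did not come close to its 4.59. Just outside the count threshold were Tmem204 (at most 12 counts, 1 library with at least 10), Rnf151 (at most 9) and Sstr5 (at most 6). Snora78 (at most 15) and Meiob (at most 25) were just inside it, with 10 or more counts in 4 libraries each.

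By role, none of the window's groups held a gene past the threshold in edgeR, and Pkd1 and Caskin1 were the 2 with an unadjusted p under 0.05, beside 0.0818% and 5.90% of all genes. The 4 mTOR pathway genes had log2 fold changes from -0.07 to 0.24 (median 0.12), with Tsc2 at 0.24 and Pdpk1, the kinase PDK1, at the lower end. The 5 vesicle, lysosome and autophagy genes, which include the proton pump subunit Atp6v0c and the chloride transporter Clcn7, had a median of 0.03. The 2 ciliary genes, Pkd1 and the intraflagellar transport gene Ift140, had 0.71 and 0.04. The 5 genes of RNA and ribosomes, among them the splicing factor gene Rnps1, had a median of -0.14. The 8 tested of 9 mitochondrial and metabolic genes had a median of -0.06, and the 8 tested of 9 signalling and ubiquitin genes one of 0.21. Summed over all 9 listed, the signalling and ubiquitin genes had 807 to 927 CPM in E147A/+ and 735 to 805 in +/+, ranges that did not overlap, while those of the other 5 groups did. These groups were drawn up with earlier results of these libraries known.

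The other Rab GTPases and the partners of RAB26 served to show whether the difference extended to its family. Of 58 other Rab genes 56 were tested and 0 passed in edgeR, with 2 at an unadjusted p under 0.05, beside 0.0818% and 5.90% of all genes. They had 21 positive values, a median log2 fold change of -0.09 and a range of -1.01 (Rab20) to 0.97 (Rab37, at a mean of 0.237 CPM). Of the 56, only 1, Rab29, had all E147A/+ libraries above all +/+ libraries, beside 0.695% of all tested genes. Its log2 fold change was 0.27 (adjusted p = 0.824 in edgeR). The 4 most abundant other Rab genes were Rab31 (-0.33), Rab6a (-0.18), Rab1a (0.04) and Rab7 (-0.13). Of the partners, Atg16l1, which the autophagy machinery uses to mark membranes, had 0.34 (SE 0.21), the exchange factor gene Plekhg5 0.08 (SE 0.25), and the synaptic scaffold genes Rims1 and Rims2 -0.10 and -0.11. None of the 4 passed, at either p, and Bhlha15 did not pass the filter on low counts.

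Within litters the Rab26 difference kept its sign. In litter 1 the 3 E147A/+ libraries had 94.4 to 124 CPM and the +/+ library 6.76, a 15.7-fold ratio of means. In litter 3 the E147A/+ library had 126 CPM and the 3 +/+ libraries 1.92 to 3.6, a 42.9-fold ratio. Each litter gives 1 library on one side, and sexes are mixed in both, so these are values without a test. Litters 2 and 4 held 1 library each, of 1 genotype.

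Neighbour by neighbour, the values within the litters often had opposite signs. In litter 1 the log2 ratio was positive for 35 of 54 neighbours, with a median of 0.12 and a range of -0.27 to 1.11, the highest being Pkd1. In litter 3 it was positive for 25, with a median of -0.12 and a range of -2.71 (Snora78) to 1.81 (Abca17). It had the same sign in both litters for 28 of the 54. Rab26os had log2 ratios of -0.21 and -1.65 within the litters, in contrast to 0.76 over all libraries. Pkd1 had 1.11 and 0.28, and Caskin1 0.66 and 1.09, so both were above 0 in each litter. The E147A/+ library of litter 3, male replicate 3, was the lowest of the 5 E147A/+ libraries for 24 of 54 neighbours and the lowest of all 10 for 10 of them. These counts and that of equal signs are not given over all genes. Whether they are particular to the window was not tested. Without male E147A/+ replicate 3, 10 of 54 neighbours (18.5%) rather than 4 had an unadjusted p under 0.05 over both sexes, or 9 rather than 3 of the 52. The share of all genes rose as well, from 5.90% to 10.5% of 17018. The count over the 54 was 6 (11.1%) without female +/+ replicate 1 or male +/+ replicate 1, beside 5.29% and 7.37% of all genes. It was 5 (9.26%) without male +/+ replicate 2, or 4 of the 52, beside 9.12% of all genes. It was 2 (3.7%) without any 1 of the other 6 libraries, beside 3.69% to 5.41%, so it rests on single libraries in both directions, and 0 passed in each of these fits.

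In the female libraries 45 members had at least 10 allelic counts each. Since the assignment of C57 reads is not known, a column is read here as counts assigned to 129 or to Cast and not as the output of 1 copy. Over these members the median Cast share was 32.7% and 34.3% in the E147A/+ libraries and 51.1% and 51.2% in +/+. The means were 33.5% ± 1.1 (SD, n = 2) and 51.2% ± 0.0581 (n = 2), which puts E147A/+ -17.7 points from +/+. By exact permutation (two-sided) p was 0.333, the smallest that 2 libraries against 2 can reach. In E147A/+ the Cast share was higher inside the window than in its flanks. In the 10 Mb before it the median share in E147A/+ was 11.2% and 8.55% over 47 genes, and in the 10 Mb after it 0.283% and 0.0951% over 167 genes. Both E147A/+ libraries had a share of at least 5% for 91.1% of the 45 members, 57.4% of genes before, 10.8% of genes after and 26.5% of the 517 genes of the whole chromosome outside the window.

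Within the window the share in E147A/+ varied more from gene to gene than between the 2 libraries. The 2 E147A/+ libraries differed by a median of 1.83 points per member and at most 9.94 points. Their mean share ran from 1.14% for Nthl1, a DNA repair glycosylase gene, to 69.6% for Rnps1. It was under 5% in both libraries for 3 members, between 5% and 35% in both for 18, at least 35% in both for 17, and mixed for 7. In +/+ 42 of 45 members had 35% to 65% in both libraries. Nthl1 had 177 counts for 129 and 3 for Cast in E147A/+ replicate 1 (1.67% Cast, 95% Wilson interval 0.568 to 4.78), and 160 and 1 in replicate 2 (0.621%, 0.110 to 3.43). In +/+ it had 55 and 56 (50.5%, 41.3 to 59.6) and 81 and 63 (43.8%, 35.9 to 51.9). At 105 kb from Rab26, it was close to all 129 in E147A/+ and close to equal in +/+. Intervals cover counting error only.

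**Figure D3:**
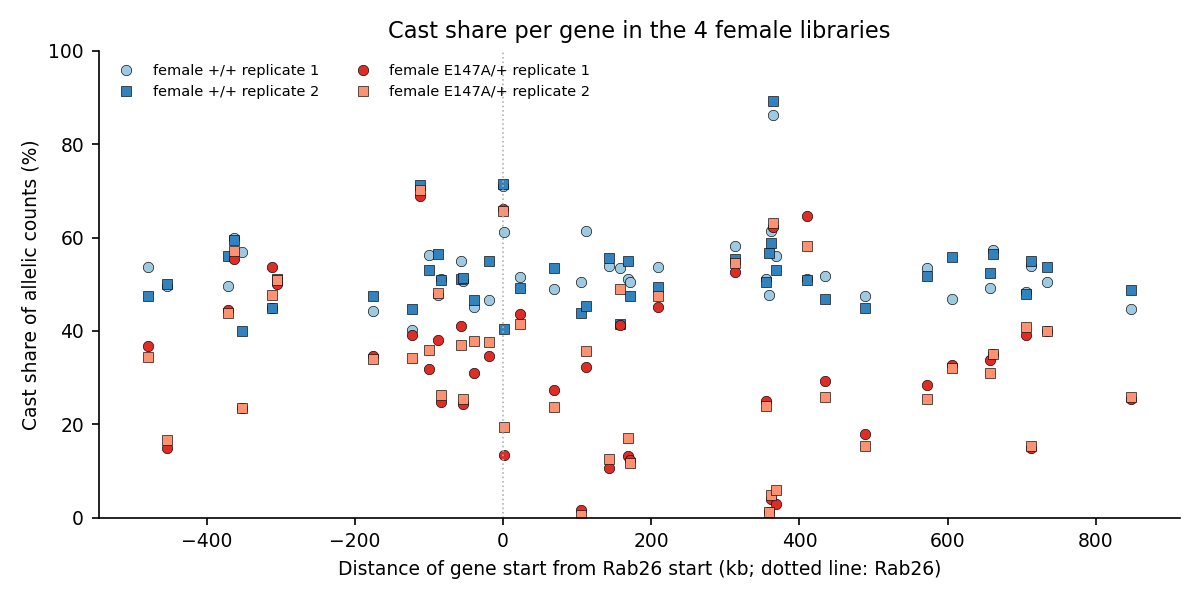
Cast share of allelic counts (y axis, %) for each of 45 members by the distance of its start from that of Rab26 (x axis, kb), in the 4 female libraries. The +/+ points gather near 50%, with library medians of 51.1% and 51.2%, and the E147A/+ points spread from near 1% to about 70%. The 2 E147A/+ libraries differ by a median of 1.83 points per gene and at most 9.94 points.

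Rab26 counts were high in both allelic columns of E147A/+. In E147A/+ replicate 1 it had 519 counts for 129 and 1009 for Cast, a Cast share of 66.0% (95% Wilson interval 63.6 to 68.4). In replicate 2 it had 455 and 868, a share of 65.6% (63.0 to 68.1). In +/+ replicate 1 it had 9 and 22, a share of 71.0% (53.4 to 83.9), and in replicate 2 it had 14 and 35, a share of 71.4% (57.6 to 82.2). Both E147A/+ shares lay inside the intervals of the +/+ shares, which rest on few counts. Scaled to library size, the 129 column was 34.8-fold and the Cast column 27.1-fold higher in E147A/+, log2 ratios of 5.12 and 4.76, and their sum was 29.3-fold higher. The allelic counts made up 36.0% to 37.4% of Rab26 counts in E147A/+ and 29.8% to 35% in +/+.

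Within the +/+ females the Cast column exceeded the 129 column by 1.30 on the log2 scale (SE 0.31, adjusted p = 0.0545 in edgeR's test of Cast against 129 counts over 575 genes of chromosome 17). Whether the assignment of reads favours a column at Rab26 was not tested. In E147A/+ females strain and genotype cannot be told apart at this gene.

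In that test 18.4% of the 575 genes passed, and 3 of 45 members did. They were Rnps1 (Cast over 129 at log2 1.29, SE 0.06, adjusted p = 0.00104), Mapk8ip3 (2.85, SE 0.16, adjusted p = 0.00108) and Atp6v0c (0.57, SE 0.07, adjusted p = 0.00755), each higher in the Cast column. Mapk8ip3 encodes JIP3, a scaffold of axonal transport, and Atp6v0c the proton-conducting subunit of the vacuolar ATPase. The Cast share of Mapk8ip3 was 87.8% ± 2.11 (SD, n = 2) in +/+ and 62.7% ± 0.601 (n = 2) in E147A/+, with 3.56% to 4.81% of its counts assigned to an allele. It shares 1557 exonic bases with Eme2 on the same strand, so its counts are uncertain. Rnps1 kept nearly the same share in both genotypes, 71.0% ± 0.414 in +/+ and 69.6% ± 0.914 in E147A/+.

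Over the 44 neighbours with allelic counts the usual pattern was a higher 129 column and a lower Cast column in E147A/+. The 129 column was higher for 37, the Cast column was lower for 35, and both held for 30. The median log2 ratio was 0.63 for 129 and -0.57 for Cast. For 39 both E147A/+ libraries had a lower Cast share than either +/+ library, and for 2 a higher one, Tedc2 and Jpt2. Counts of this kind, by column or by share, are not given over all genes or over the rest of chromosome 17. None is therefore read as a trait of the neighbours. The lower share was not particular to the window. Over 517 genes of the rest of chromosome 17 the median Cast share was 0.917% and 0.250% in E147A/+ and 48.6% and 49.5% in +/+. Both columns were higher for 7 neighbours, and both by at least 2-fold for 1, Caskin1, at log2 ratios of 1.85 and 1.10. In edgeR's test of 129-assigned counts in females 0 of 12352 genes passed (0%), with 834 at an unadjusted p under 0.05. Of the 44 neighbours 0 passed, with 7 at an unadjusted p under 0.05, and no other tool was run on these counts. Rab26, at a log2 ratio of 5.12 in the 129 column, was among the genes that did not pass. With 2 libraries against 2 the test thus cannot tell whether the 129 counts of the neighbours differ, and no conclusion is drawn from these counts.

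**Figure D4:**
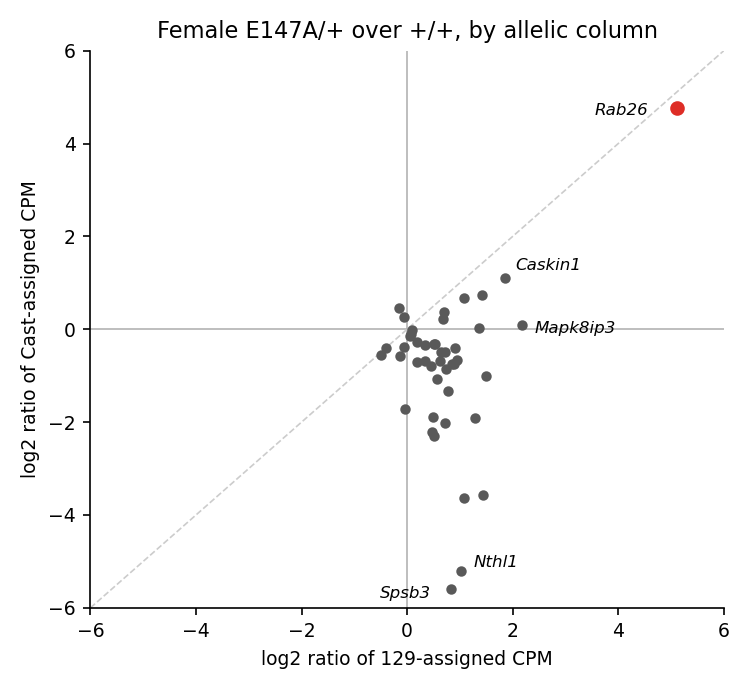
Log2 ratio of E147A/+ over +/+ in females for 129-assigned CPM (x axis) and Cast-assigned CPM (y axis), 1 point per member with allelic counts; the dashed line marks equal ratios. Rab26, at 5.12 and 4.76, is far from the others, most of which lie to the right of 0 and below 0; the Cast ratios of Nthl1, Spsb3 and Eme2 rest on 1 to 3 Cast counts per E147A/+ library.

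Of the nearest genes on each side, Rab26os and Traf7 had a higher 129 and a lower Cast column in E147A/+, and Pkd1 and Caskin1 had both columns higher. For Rab26os the Cast shares of E147A/+ averaged 16.5% ± 4.28 (SD, n = 2), and those of +/+ averaged 50.7% ± 14.7 (n = 2). Its 129 column was 2.82-fold and its Cast column 0.498-fold that of +/+. Allelic counts made up 22.4% to 28.3% of Rab26os counts in E147A/+ and 50.8% to 53.3% in +/+. The allelic sum was therefore 1.60-fold where the total was 3.33-fold, so these column ratios do not carry over to the total. The Cast share of Traf7 was 36.2% ± 2.15 in E147A/+ and 50.8% ± 5.86 in +/+, and that of Pkd1 was 42.6% ± 1.52 and 50.4% ± 1.68. Traf7 had ratios of 1.42-fold for 129 and 0.804-fold for Cast, Pkd1 of 1.61-fold and 1.16-fold, and Caskin1 of 3.60-fold and 2.15-fold. Rab26os and Rab26 overlap in position, and their mean Cast shares in E147A/+ were 16.5% and 65.8%. The means of the neighbours ran from 1.14% to 69.6%.

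Facts of the whole series that touch these values are few. Smchd1 had a mean of 118 and 115 CPM in female and male E147A/+ and 156 and 155 in +/+, and its mutation cannot be read from gene counts. Smchd1 levels overlapped between the genotypes over both sexes, at 94.2 to 128 CPM in E147A/+ and 122 to 192 in +/+. Markers of neural stem cells (7 genes) summed to 4131 to 5921 CPM in E147A/+ and 3710 to 5938 in +/+. Markers of neurons (5) summed to 23.1 to 67.0 and 32.4 to 63.0 CPM, of the oligodendrocyte lineage (5) to 1354 to 2012 and 1861 to 2030, and of astrocytes (4) to 36.1 to 118 and 37.9 to 78.6. Markers of microglia (4) and endothelium (3) stayed at 0.241 to 2.80 CPM in sum. No tested marker passed over both sexes, and 0 markers were at 0 in every library. The ranges of each list overlapped between the genotypes. In the oligodendrocyte lineage list Olig1 and Olig2 made up most of the sum, at log2 fold changes of -0.08 and 0.05, while 2 of the 5 genes had an unadjusted p under 0.05, as did 5.90% of all genes. They are Pdgfra, the receptor of oligodendrocyte precursors, with a mean of 13.2 CPM in E147A/+ and 49.3 in +/+ (log2 -2.38, SE 0.48, adjusted p = 0.249 in edgeR), and the lineage transcription factor gene Sox10, with 4.42 and 16.3 CPM (log2 -2.29, SE 0.76, adjusted p = 0.727 in edgeR). Of the neuron markers 1 of 5 had an unadjusted p under 0.05, Rbfox3, with 3.5 CPM in E147A/+ and 1.45 in +/+ (log2 1.36, SE 0.49, adjusted p = 0.772 in edgeR). Of the endothelial markers 1 of 3 did, Cldn5, with 0.312 and 0.972 CPM and libraries at 0 in both genotypes. Library ranges of these 4 genes overlapped between the genotypes. The part of cell makeup in the Rab26 difference was not tested.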

How the data were processed

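Raw counts per gene for 10 libraries, and counts assigned to the 129 and Cast alleles for the 4 female libraries, were used as the authors deposited them. The labels' protocols describe stranded poly(A) libraries and paired-end reads. The submitters' processing notes name Trim Galore 0.4.4, HISAT2 2.0.5, featureCounts, R 3.5.1, edgeR 3.24.0 and the builds GRCm38 and mm10. Their roles, the use of strand and the assignment of alleles are not given in the sources used here. The number of per-sample columns not used is 0.

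Titles gave the sex and genotype of each library. Genes were filtered by filterByExpr (17110 of 52632 kept), then scaled by TMM. The quasi-likelihood F test of edgeR 4.0.16 (under R 4.3.3) was run with 1 mean per group over 10 libraries, which leaves 6 residual degrees of freedom. Benjamini-Hochberg adjustment covered all genes tested (threshold 0.05). A standard error is the size of the log2 fold change over the square root of its F. Exon lengths and overlaps came from GENCODE M21. Allelic values need at least 10 allelic counts in each female library. The test of Cast against 129 counts compared both columns within the +/+ females with library as a block, and that of 129 counts used the whole-library sizes. Single-library shares have 95% Wilson intervals. The methods were tested on simulated counts.

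The members, the lists and the tests were chosen with earlier results of these data known. Genes were named by this rule: Rab26, the 5 nearest tested members on each side, members past the threshold in any contrast, the 5 highest and 5 lowest fold changes, members past the threshold between the Cast and 129 columns, members next to the count threshold, and at most 4 genes of a list. Genes named outside it, such as Pdgfra, Sox10, Rbfox3, Cldn5, Nthl1, Spsb3, Eme2, Cramp1l, Tedc2 and Jpt2 in a count, were chosen after their values were seen. Alternatives were RLE scaling, DESeq2 1.42.0, limma 3.58.1 with voom, other filters, litter as a covariate, a replicate block, litters alone, a stricter allelic minimum and leaving out each library.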

Additional observations from a re-analysis of the deposited data

How the results depend on the processing

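The count of called neighbours was 0 in every contrast under every alternative that kept at least 2 libraries in each group, the replicate block included. Few genes of any kind passed. Without 1 male library, 6 to 12 of 16983 to 17039 tested genes passed over both sexes in edgeR. Shares of all genes under the other alternatives are not given here. The repeated 0 is therefore not read as a result about the neighbours. The Rab26 log2 fold change over both sexes was 4.39 to 4.73 when each library was left out, 3.97 in litter 1 alone and 5.42 in litter 3 alone. With the replicate block it was 4.67, with the female numbers crossed, a pairing chosen after seeing the data, 4.66, and with litter as a covariate 4.54. Same-numbered libraries had correlations of deviations of -0.33 in females and -0.26, 0.48 and 0.04 in males. With 2 female libraries per group both numbers give the same value, so it cannot show whether they pair. In males, replicates 2 of both genotypes came from litter 1 and replicates 3 of both from litter 3, while replicates 1 came from litters 1 and 4. The main fit did not treat the numbers as pairs. With litter as a covariate the sign turned for Pgp (0.15), Mlst8 (-0.17), Rab26os (-0.48), Tsc2 (-0.0812), Gfer (0.16) and Noxo1 (0.0584). With voom it turned for Pgp (0.0398). Leaving out each library, Mlst8 ranged from -0.0520 to 0.11 and Pgp from -0.21 to 0.0627. None of these passed any test, and the cause was not tested. The difference in Cast share was -15.2 points from summed counts in place of medians, and -18.5 to -16.9 points without 1 library. The test of Cast against 129 counts rests on 2 libraries and could not be rerun with 1 left out. Females have 2 libraries per genotype, which limits every allelic comparison, and low members such as Abca17 have few counts. Restricting the neighbours to 52 that meet the count minimum in +/+ alone left 0 called in each contrast.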
